A study of Sus scrofa domesticus with 9 samples.

Results

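Thyroid hormone handling in the liver was followed through 5 genes: TRHDE, DIO1, TTR, THRA and THRB. They were taken by symbol, and they had been selected on measured values of this same comparison, the liver after parenteral nutrition (PN) against the bottle-fed liver. Their differences between the feeding groups are therefore given below as a description, the authors' calls included, and support nothing. The gene lists used below were also chosen with earlier results of these data known, so their counts of calls are a description too. Of the 5 genes, 1 (TRHDE) had a value for every liver, in a deposited table of 1054 genes. The other 4 were found only in the deposited table of all 16223 genes, which holds a mean, a log2 fold change and its standard error from the authors' DESeq2 fit for each gene and no values per liver.

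The livers came from preterm Yorkshire piglets of 2 litters, taken at day of life 15. In the PN group (6 livers), PN with a soybean oil lipid emulsion ran from the first day until the end, and the piglets also received a medium chain triglyceride vehicle by orogastric gavage every day. In the bottle-fed group (3 livers), piglets started on PN and were moved onto a sow milk replacer in the first days of life. All piglets were delivered by caesarean section and carried a central venous catheter. The 2 groups came from separate sows, so litter, feeding and vehicle cannot be told apart. One PN liver, PN 5, was excluded in the study as an outlier, as marked in its plots of the samples. Group values below are over the 5 kept PN livers and the 3 bottle-fed livers, and PN 5 is given apart.

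The thyroid gland secretes mainly thyroxine (T4), a prohormone with a low affinity for its nuclear receptors. The liver makes most of the plasma proteins that carry T4, takes the hormone up, and turns it into the active triiodothyronine (T3) with a selenium-containing deiodinase, while other enzymes conjugate it for excretion or inactivate it. T3 then binds receptors that sit on DNA with a retinoid X receptor and switch genes of lipid, cholesterol and glucose metabolism. At the top of the axis, thyrotropin-releasing hormone (TRH) of the hypothalamus drives thyrotropin and is inactivated outside cells by the peptidase TRHDE.

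TRHDE was nearly silent in the PN livers and readily detected in the bottle-fed livers. In raw reads, the kept PN livers had 9, 5, 3, 4 and 4 reads (PN 1, 2, 3, 4 and 6), and PN 5 had 11. The bottle-fed livers had 371, 341 and 339 reads. The highest PN count was thus far under the lowest bottle-fed count, and PN 5, the library set aside, was the PN liver with the most TRHDE reads. Divided by the authors' size factor for each library, the normalized counts were 8.78, 4.22, 2.89, 3.71 and 4.57 in the kept PN livers and 12.2 in PN 5, against 303, 393 and 353 in the bottle-fed livers. The means were 4.83 ± 2.30 (SD, n = 5) with PN and 349.8 ± 44.95 (SD, n = 3) with bottle feeding, a 72.4-fold lower level with PN, or 57.7-fold lower with PN 5 included. Per length, this was an FPKM (fragments per kilobase of gene, scaled to library size) of 0.026 to 0.080 in the kept PN livers and 2.78 to 3.59 in the bottle-fed livers.

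The precision of the PN values was set by the few reads. An exact 95% Poisson interval on the raw count, which covers counting error only, ran from 0.62 to 8.77 reads in PN 3 and from 4.12 to 17.1 reads in PN 1, so the kept PN livers cannot be ranked among themselves. In bottle-fed 2 the interval was 306 to 379 reads. On the scale of log2 of the normalized count plus 1, TRHDE was lower with PN by a difference of -5.98 (SE 0.25). It was the 10th largest decrease among the 481 genes that were lower with PN in the table with values per liver. That table had been limited by the authors to genes past an adjusted p under 0.05 and a 2-fold change in another fit of these same groups, as its own columns show for all 1054 genes, and 800 of the 1037 genes it shares with the table of all genes were called there too. Its background is correspondingly high: every kept PN liver lay below every bottle-fed liver for 41.6% of its genes and above for 43.5%. In the table of all genes the authors' log2 fold change of TRHDE was -5.54 (SE 0.41).

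**Figure D1:**
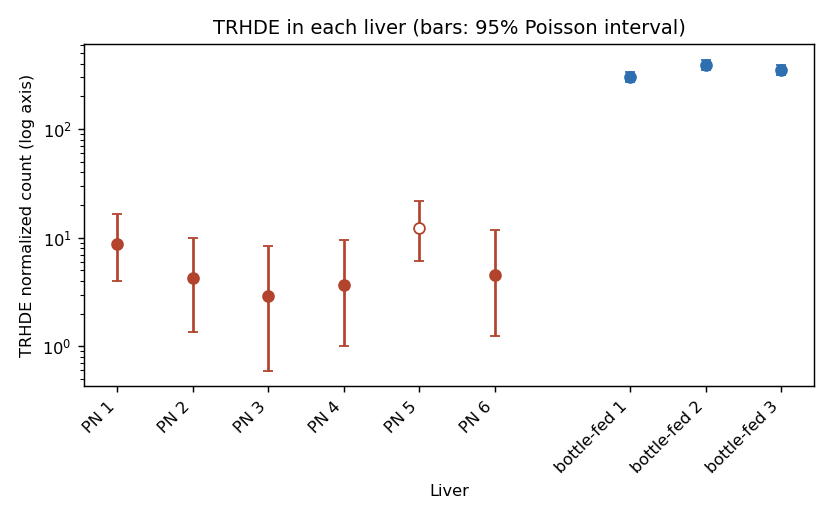
TRHDE normalized count in each liver on a log axis, PN livers at the left (red; PN 5, set aside in the study, is the open symbol) and bottle-fed livers at the right (blue); bars are exact 95% Poisson intervals of the raw count divided by the size factor. PN values run from 2.89 to 12.2 and bottle-fed values from 303 to 393, and no interval of one group reaches into the other.

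TRHDE is a membrane-anchored zinc aminopeptidase of the M1 family, known for its narrow specificity for TRH. In the rat, a soluble form in serum is derived from the liver. In the pig the gene (ENSSSCG00000000515) lies on chromosome 5 on the plus strand, from 36274364 to 36658703 in Sscrofa11.1 as the authors' table gives it, and its RefSeq coding sequence of 1066 codons is spread over 19 exons. Its zinc site, shown because it defines the family to which the comparison genes below belong, has a histidine, glutamate, 2 further residues and a histidine, followed by a distal glutamate. The coding sequences over this site (RefSeq, Sscrofa11.1, coding strand, joined across 2 exons) follow for TRHDE, ANPEP (aminopeptidase N) and ENPEP (aminopeptidase A), with the codons of the zinc motif and the distal glutamate in capitals.
TRHDE: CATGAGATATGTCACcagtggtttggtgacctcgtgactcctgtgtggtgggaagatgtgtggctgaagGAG
ANPEP: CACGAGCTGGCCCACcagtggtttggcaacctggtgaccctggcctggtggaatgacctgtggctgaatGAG
ENPEP: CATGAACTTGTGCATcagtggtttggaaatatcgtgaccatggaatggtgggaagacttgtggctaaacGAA

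The TRHDE stretch starts at codon 482 and shares 53 of 72 bases with ANPEP and 50 of 72 with ENPEP. The other M1 enzymes and the cytosolic pyroglutamyl peptidase PGPEP1 had log2 fold changes of a much smaller size. Of the 10 other measured genes of this list, 1 (ENPEP) was called lower with PN at the authors' adjusted p under 0.05 by DESeq2 and 0 were called higher. Over all genes of the table, 6.95% were called lower and 6.64% higher, so 1 of 10 is near the background. The median log2 fold change was -0.04 over these 10 genes and 0.0070 over all genes. Without adjustment, 1 gene of the list had a 95% interval above 0. ENPEP, which trims angiotensin II, had a log2 fold change of -0.94 (SE 0.29). ANPEP, a broad aminopeptidase of the bile canaliculus, was not called, with 0.0087 (SE 0.26). PGPEP1, which also removes pyroglutamate from peptides, was not called either, with 0.05 (SE 0.19), and nor was RNPEPL1 with -0.06 (SE 0.19).

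Genes beside TRHDE on chromosome 5 were looked at by position, outside the rule for named genes and after the TRHDE values were known. Of the 8 named genes within 1 Mb, 5 were in the table of all genes. LGR5, a Wnt pathway receptor of hepatocytes around the central vein, was called lower with PN at -1.71 (SE 0.47) on the log2 scale. The 4 others, ZFC3H1, THAP2, TMEM19 and TBC1D15, lay between -0.35 and 0.30 and were not called.

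Among the genes with values per liver, the 5 whose deviations from their group means were most like those of TRHDE over 8 livers were MVD (Pearson r 0.96), NKIRAS1 (0.95), AFM (0.94), OXLD1 (0.91) and FGFR4 (0.84), out of 764 genes. MVD encodes a cholesterol synthesis enzyme, AFM a vitamin E-binding plasma protein of the albumin family, and FGFR4 the receptor through which FGF19 restrains bile acid synthesis. These livers share a library and a depth for all genes, the TRHDE values with PN rest on 3 to 9 reads each, and with all 9 livers only 1 of the 5 genes stayed among the 5 most alike. Nothing is read from this order.

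The authors' calls for the 5 genes were lower for TRHDE, DIO1 and TTR, and not called for THRA and THRB. That is 3 of 5 called lower and 0 called higher, against the 6.95% and 6.64% of all genes given above. Since the genes had been picked on this contrast, nothing is read from that count. The median log2 fold change of the 5 was -0.82.

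DIO1, the type 1 deiodinase, is the main enzyme of the liver for making T3 from T4, and it also clears reverse T3. Its authors' mean was 2856 normalized counts, and its log2 fold change was -0.82 (SE 0.22, 95% interval -1.24 to -0.39), that is, 56.8% of the bottle-fed level. The gene (ENSSSCG00000028896) lies on chromosome 6 on the minus strand, from 158376744 to 158392745 in RefSeq's annotation of Sscrofa11.1. Deiodinases carry selenocysteine at the active centre, encoded by an in-frame TGA that elsewhere ends translation. The coding bases around it are shown for the 3 deiodinases, since the calls below differ between enzymes that share this centre. They come from RefSeq (Sscrofa11.1, coding strand), with the selenocysteine codon in capitals. The DIO1 stretch is chr6:158383681-158383731, the DIO2 stretch is chr7:103101890-103101940, both on the minus strand, and DIO3 is on a scaffold that is not placed on a chromosome.
DIO1: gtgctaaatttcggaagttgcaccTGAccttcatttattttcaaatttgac
DIO2: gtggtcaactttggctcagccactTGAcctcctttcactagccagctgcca
DIO3: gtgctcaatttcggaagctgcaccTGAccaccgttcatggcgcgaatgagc

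The selenocysteine is codon 126 of 249 in DIO1, 133 of 265 in DIO2 and 171 of 305 in DIO3. Over these 51 bases DIO1 matched DIO3 at 35 and DIO2 at 27. DIO3, the inactivating deiodinase that is high in fetal tissue and placenta, was low in both groups, and each kept PN liver exceeded all 3 bottle-fed livers. Its normalized counts were 67.3, 59.9, 77.0, 64.9 and 59.4 in the kept PN livers (PN 1, 2, 3, 4 and 6) and 118 in PN 5, against 32.7, 10.4 and 47.9 in the bottle-fed livers. The kept PN livers lay close together, the bottle-fed livers did not, and PN 5 was the highest of all. The means were 65.7 ± 7.13 (SD, n = 5) with PN and 30.3 ± 18.9 (SD, n = 3) with bottle feeding, 2.17-fold higher with PN. In the table of all genes DIO3 was not called, with 1.33 (SE 0.57). A quasi-likelihood test by edgeR on the raw counts called it higher, at 1.11. That test called 54.2% of the 1054 genes higher and 45.6% lower, since their table had been limited to genes past a threshold on this contrast. A call there was thus nearly certain beforehand, and the 2 fits adjusted over different sets of genes. Nothing is read from the difference between the 2 calls. The gene model in the authors' table, 915 bases long, is as long as the 305 codons, so reads in its untranslated parts were not counted. DIO2, which makes T3 mainly outside the liver, was not called in the table of all genes, with an authors' mean of 33.5 and 0.12 (SE 0.57).

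IYD recovers iodide from mono- and diiodotyrosine, the by-products of thyroid hormone synthesis, and is known from thyroid, liver and kidney. Its normalized counts were 3171, 3166, 2768, 3672 and 3230.0 in the kept PN livers and 4388 in PN 5, against 1952, 1781 and 1219 in the bottle-fed livers. Every PN liver was above every bottle-fed liver. The means were 3202 ± 321 (SD, n = 5) with PN and 1651 ± 384 (SD, n = 3) with bottle feeding, 1.94-fold higher, and the gene was called higher in the table of all genes at 0.93 (SE 0.20). Per length, IYD stood far above DIO3 in both groups, with an FPKM of 52.2 ± 5.25 for IYD and 3.63 ± 0.39 for DIO3 with PN, and of 27.01 ± 6.31 and 1.68 ± 1.05 with bottle feeding.

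Among the 3 genes of the deiodinase list other than DIO1, 1 (IYD) was thus called higher in the table of all genes and 0 lower. The machinery that inserts selenocysteine and supplies selenium gave 0 calls in either direction by DESeq2 among 11 measured genes (15 listed), with a median of 0.10. With 6.64% of all genes called higher and 6.95% lower, fewer than 1 call in a direction would be usual for 11 genes, so nothing is read from the 0. Without adjustment, 1 of them had a 95% interval above 0 and 1 had one below 0. GPX4, an abundant selenoprotein that protects membrane lipids, had -0.07 (SE 0.15). SARS1, which charges the selenocysteine tRNA with serine, had 0.10 (SE 0.18), and SEPSECS, which later forms the selenocysteine on that tRNA, had 0.34 (SE 0.18).

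TTR, transthyretin, carries T4 and, together with RBP4, retinol in plasma. It was among the most abundant liver transcripts, with an authors' mean of 49451 normalized counts, and its log2 fold change was -0.91 (SE 0.22, 95% interval -1.35 to -0.48), that is, 53.1% of the bottle-fed level. The gene (ENSSSCG00000023686) lies on chromosome 6 on the plus strand, from 115496338 to 115503974 in RefSeq. The 250 bases before its start, chr6:115496088-115496337, are shown because TTR is the only one of the 5 genes with the 6-base half-site AGGTCA of nuclear receptors, read on either strand, in that window. It is in capitals, on the opposite strand, at position -215 counted from the start.
TTR: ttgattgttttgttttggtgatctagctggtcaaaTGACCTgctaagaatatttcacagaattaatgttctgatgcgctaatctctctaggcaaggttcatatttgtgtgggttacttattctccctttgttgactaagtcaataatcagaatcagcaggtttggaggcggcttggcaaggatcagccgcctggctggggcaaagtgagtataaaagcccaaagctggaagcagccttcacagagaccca

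All windows lie before RefSeq's gene start, which for TRHDE is 36266883 and not the start in the authors' table given above. The half-site occurred in 12.3% of the 20638 upstream windows of this length in the annotation, and many nuclear receptors share it. A pair of half-sites in the same direction with 4 bases between them, the textbook arrangement for the thyroid hormone receptor, was found in none of the 5 windows and in 2 of the 20638. A match or its absence in such a window is a description of letters and does not show binding.

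Of the 7 listed plasma carriers and partners other than TTR, all measured, 4 were called lower with PN, 1 was called higher and 2 were not called, against 6.95% lower and 6.64% higher over all genes. This list was chosen with earlier results of these data known, so nothing is read from the contrast with all genes. The median log2 fold change of the 7 was -0.51. The 4 lower calls became 2 at an adjusted p under 0.01 and 1 with a change of at least 2-fold required, and the 1 higher call was lost under either. SERPINA7, the thyroxine-binding globulin, which with ALB was chosen outside the rule for named genes after the values were seen, was called lower at -0.77 (SE 0.24), and ALB, the carrier of low affinity and large capacity, at -0.78 (SE 0.26). RBP4, the retinol carrier that travels bound to TTR, was lower by less, at -0.51 (SE 0.15). APOB, the protein of very low density and low density lipoproteins, was called higher at 0.54 (SE 0.16), while APOE had -0.25 (SE 0.17) and APOA1 0.05 (SE 0.22), and neither was called.

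APOA2, a protein of high density lipoproteins, was the carrier list's gene with values per liver. Its normalized counts were 12826, 6394, 7948, 10034 and 10639 in the kept PN livers and 7054 in PN 5, against 21758, 27986 and 19446 in the bottle-fed livers. All PN livers lay under all bottle-fed livers, and the mean was 9568 ± 2484 (SD, n = 5) in the PN group, against 23063 ± 4417 (SD, n = 3) in the bottle-fed group. APOA2 was called lower at -1.31 (SE 0.22).

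**Figure D2:**
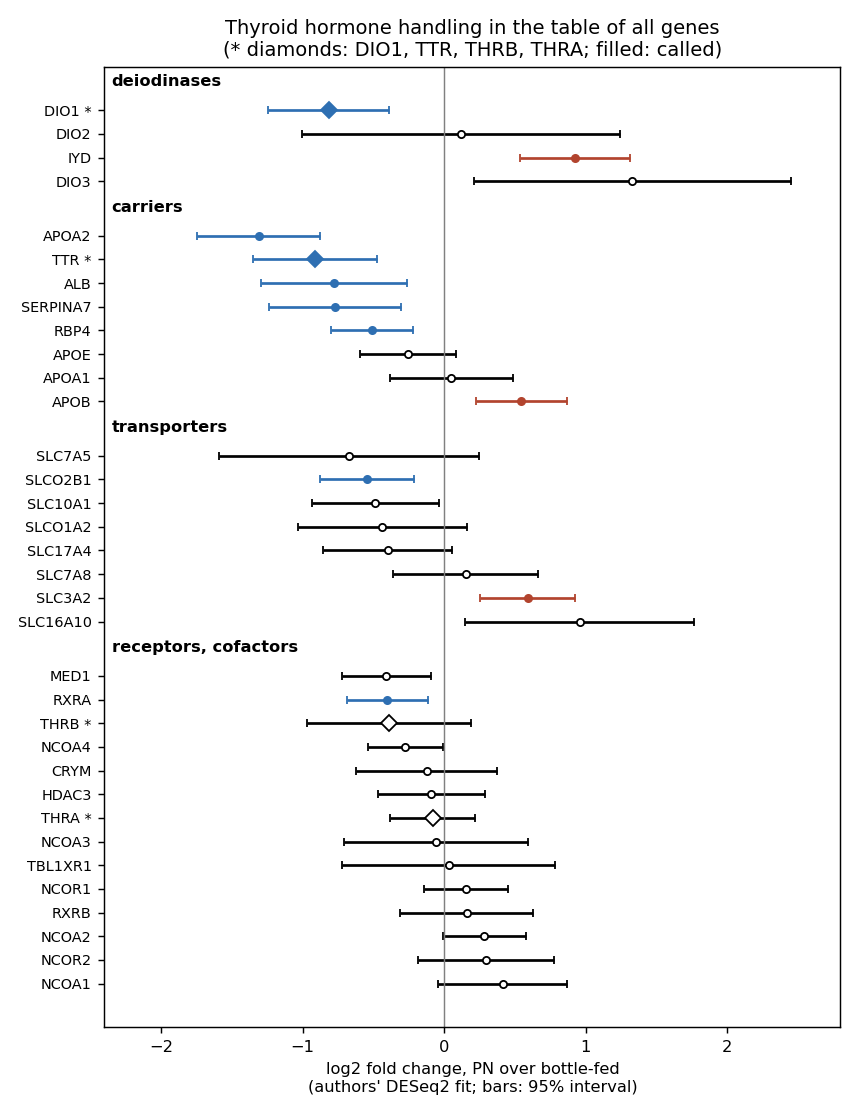
Log2 fold change of PN over bottle-fed in the table of all genes for the deiodinase, carrier, transporter and receptor lists (genes with an authors' mean of at least 30), with bars for the 95% interval; filled symbols are called at an adjusted p under 0.05 (blue lower, red higher) and diamonds with a star are DIO1, TTR, THRB and THRA. Among the carriers 5 of 8 genes are called lower, TTR included, and of the 14 receptor and cofactor genes 1 is. The lists were chosen with earlier results of these data known, so nothing is read from these counts.

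DIO1 and the carriers are products of hepatocytes, and markers of several cell types differed between the groups. Of the 5 hepatocyte markers that are not on the carrier list, 2 (CPS1 and TAT) were called lower and 0 higher, against 6.95% and 6.64% of all genes. The median log2 fold change of the 5 was -0.68, and SERPINA1, APOC3 and TF were not called. SERPINA1 had an authors' mean of only 28.9, against 152529 for APOC3, and a wide error, at -0.87 (SE 0.54). CPS1, which opens the urea cycle, had -0.88 (SE 0.26), and its normalized counts ran from 18459 to 48854 in the kept PN livers and from 49685 to 58313 in the bottle-fed livers. Of 5 bile duct markers, 3 (SPP1, EPCAM and KRT7) were called higher, while CFTR had 0.55 (SE 0.28) and SOX9 -0.11 (SE 0.39) and were not called. The summed normalized counts of those 3, the ones with values per liver, ran from 637 to 1714 in the kept PN livers and from 239 to 329 in the bottle-fed livers. Among macrophage markers 2 of 6 were called higher, LGALS3 at 6.08 (SE 0.52) and CD68 at 0.76 (SE 0.25). The others went both ways and were not called. VSIG4 had 0.52 (SE 0.24), CD163 0.28 (SE 0.28), CSF1R -0.30 (SE 0.21) and TIMD4 -0.41 (SE 0.24). Neutrophil markers were split, with 1 of 3 called higher, CSF3R at 2.20 (SE 0.69). MPO had -2.995 (SE 1.13) and S100A8 had 1.46 (SE 1.28), and neither was called. Their authors' means were low, at 12.3 for MPO and 10.5 for S100A8, against 43.5 for CSF3R. Stellate cell or fibroblast markers had 2 of 8 called lower, DCN at -1.48 (SE 0.42) and LRAT at -0.77 (SE 0.27). The others were not called: RELN at 0.36 (SE 0.18) and PDGFRB at 0.13 (SE 0.21) lay above 0, and NGFR, COL3A1, COL1A1 and LUM below. Markers of erythroid precursors had 3 of 5 called lower. None of 5 endothelial and none of 5 lymphocyte markers was called. The part of these cell types in the values of DIO1, TTR and the other genes was not tested, and in bulk liver fewer cells of a type and less RNA per cell cannot be told apart.

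The receptors themselves were not called. THRA, the receptor that predominates in heart, bone and brain, had an authors' mean of 1089 normalized counts and a log2 fold change of -0.08 (SE 0.15, 95% interval -0.38 to 0.22). THRB, the main receptor for T3 in hepatocytes, had an authors' mean of 431 and -0.39 (SE 0.30, 95% interval -0.97 to 0.19). The interval of THRB holds the DIO1 value as well as 0, so with this error a change of the size seen for DIO1 can be neither shown nor set aside for THRB. THRA lies on chromosome 12, from 22270506 to 22296684, and THRB on chromosome 13, from 10900716 to 11360587, both on the minus strand. No value per liver was used for either.

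Of the 12 measured partner and cofactor genes listed with the receptors, 1 was called lower and 0 higher by DESeq2, close to the 6.95% and 6.64% of all genes, and the median log2 fold change was -0.01. Without adjustment, 0 genes of the list had a 95% interval above 0 and 3 had one below 0. The gene called was RXRA, the partner that the thyroid hormone receptor shares with many other nuclear receptors, at -0.40 (SE 0.15). NCOR1, the corepressor that the receptor holds without hormone, had 0.16 (SE 0.15). The coactivators NCOA2 and NCOA4 had 0.28 (SE 0.15) and -0.27 (SE 0.14), and these 3 were not called.

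Of 10 measured genes that carry thyroid hormones through membranes (12 listed), 1 was called higher and 1 lower, near the 6.64% and 6.95% of all genes, with a median of -0.38. SLC3A2, the heavy chain shared by several amino acid transporters, was called higher at 0.59 (SE 0.17). SLCO2B1, an organic anion importer of the sinusoidal membrane, was called lower at -0.54 (SE 0.17). SLC10A1, better known for bile acid uptake, had -0.49 (SE 0.23), SLCO1A2 had -0.44 (SE 0.31) and SLC17A4 had -0.40 (SE 0.23), and none of these was called.

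Genes known to respond to T3 in liver, most of them from rats and mice, went in both directions. Of 26 measured targets (28 listed), 6 were called higher and 3 lower, against 6.64% and 6.95% of all genes, and the median log2 fold change was -0.13. Many of these genes also respond to fasting, fatty acids, insulin or bile acids, so the list is not particular to thyroid hormone. Of genes that T3 raises in rodents, CPT1A, the entry enzyme of mitochondrial fatty acid oxidation, was called higher at 1.64 (SE 0.24). THRSP, the lipogenic protein Spot 14, was called lower at -2.72 (SE 0.74). G6PC1, which releases glucose, was called higher at 1.20 (SE 0.25). THRSP and G6PC1 fall outside the rule for named genes and were chosen after their values were seen. KLF9, one of the most direct targets of the receptor, was also chosen so, and was not called at 0.20 (SE 0.22). PCK1, FASN and IGFBP1, the most abundant genes that were not called, had 0.19 (SE 0.16), -0.78 (SE 0.84) and 0.38 (SE 0.49).

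For 6 of the targets there were values per liver. FGF21, a fasting hormone of the liver, had normalized counts of 643, 329.9, 418, 475 and 373 in the kept PN livers and 385 in PN 5, against 39.2, 87.6 and 33.3 in the bottle-fed livers. Every PN liver was well above the highest bottle-fed liver. The mean was 448 ± 122 (SD, n = 5) in the PN group, against 53.4 ± 29.8 (SD, n = 3) in the bottle-fed group, 8.39-fold higher with PN. CPT1A had 7147, 3502, 7938, 7334 and 2933 in the kept PN livers and 6370 in PN 5, against 1996, 2008 and 2334 in the bottle-fed livers. PN 2 and PN 6 lay closest to the bottle-fed range, and the other PN livers were well over it. CYP7A1, the rate-limiting enzyme of bile acid synthesis, had 74.1, 43.9, 80.8, 46.3 and 29.7 in the kept PN livers and 72.1 in PN 5, against 513, 150 and 300 in the bottle-fed livers. The PN livers were all under the bottle-fed livers, and the bottle-fed livers spread over a wider range. The mean was 5.84-fold lower with PN.

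The other 3 targets with values per liver were higher with PN in every liver. ANGPTL4, an inhibitor of lipoprotein lipase, ran from 2193 to 4211 in the kept PN livers and from 919 to 1008 in the bottle-fed livers. PDK4, which holds back glucose oxidation, ran from 4162 to 7090.1 in the kept PN livers and from 1817 to 2937 in the bottle-fed livers. TXNIP, a sugar-responsive inhibitor of thioredoxin, ran from 3779 to 6096 in the kept PN livers and from 1918 to 2174 in the bottle-fed livers. Their means with PN were 3.03-fold, 2.28-fold and 2.41-fold those with bottle feeding.

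Of 9 measured genes of conjugation and clearance (18 listed), 3 were called higher and 1 lower, against 6.64% and 6.95% of all genes, with a median of 0.29. SULT1A3, listed as a phenol sulfotransferase, had normalized counts of 152, 259, 471, 246 and 119 in the kept PN livers and 87.6 in PN 5, against 1042, 1341 and 1239 in the bottle-fed livers. Every PN liver lay under every bottle-fed liver, and the mean was 4.84-fold lower with PN. Genes of this family are near copies of each other in many mammals, so the share of reads that belongs to this copy is uncertain. SULT2A1, which sulfates bile acids and steroids, was called higher at 0.65 (SE 0.16), SULT1E1, which sulfates estrogens and iodothyronines, at 0.63 (SE 0.19), and ABCC2, the canalicular exporter of conjugates, at 0.62 (SE 0.21). GUSB, which can remove glucuronide from the hormone, had 0.29 (SE 0.19), SULT1C2 0.45 (SE 0.32) and ABCC3 0.0044 (SE 0.17), and these 3 were not called.

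Genes of TRH, thyrotropin and the thyroid gland were mostly not measured, and the measured ones had authors' means from 3.62 to 59.7. Of 14 listed, 4 were measured, and 1 was called higher and 0 lower, against 6.64% and 6.95% of all genes. That gene was TG, thyroglobulin, the precursor of thyroid hormone in the gland. It had normalized counts of 78.0, 37.1, 171, 65.8 and 86.8 in the kept PN livers and 85.4 in PN 5, against 38.4, 35.7 and 37.5 in the bottle-fed livers. PN 2 lay within the bottle-fed range and PN 3 was the highest, so the groups overlapped. Per length its FPKM was 0.51 ± 0.29 with PN and 0.22 ± 0.01 with bottle feeding. SLC26A4 and DUOX2 had authors' means of 3.62 and 5.72 and were not called.

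**Figure D3:**
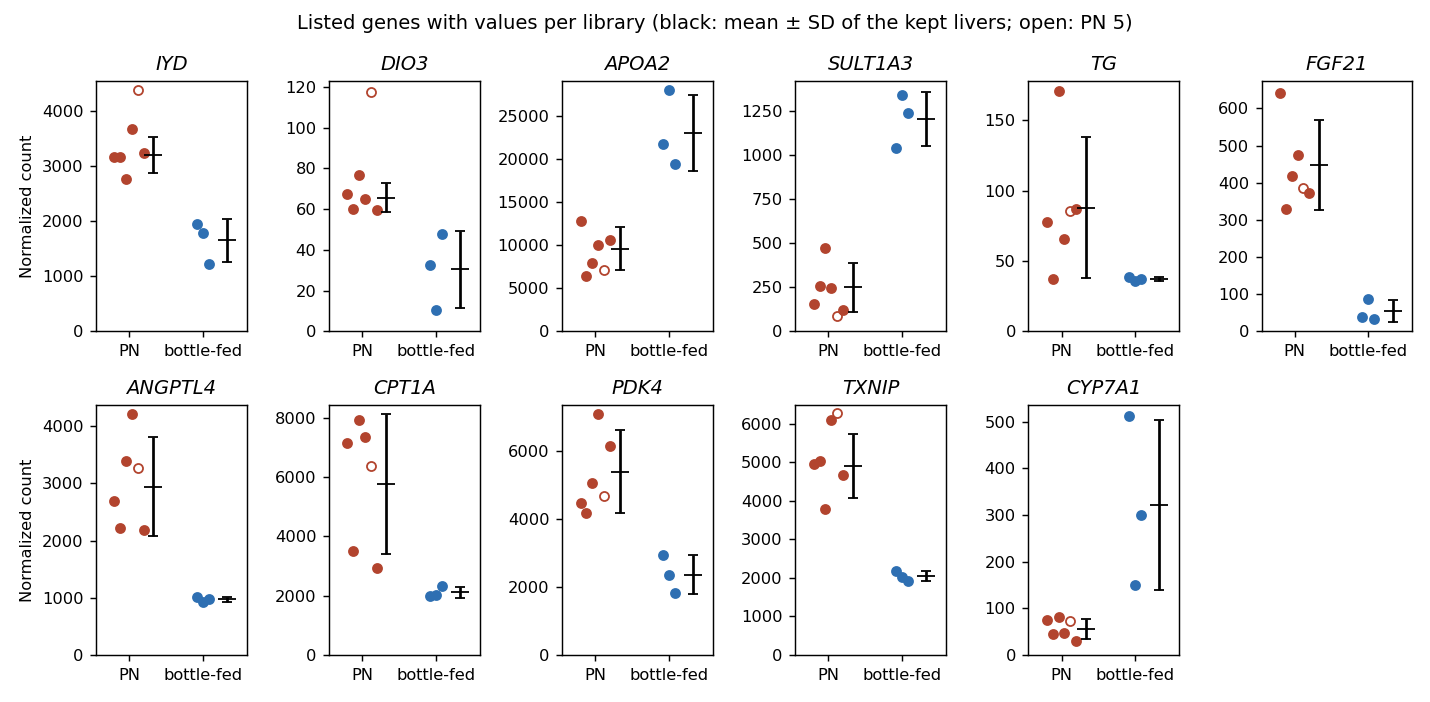
Normalized count per liver of the 11 listed genes other than TRHDE that had values per liver, with PN at the left (red, PN 5 open) and bottle-fed at the right (blue) in each panel, linear axes from 0, and black bars for the mean and SD of the 5 kept PN livers and the 3 bottle-fed livers. TG is the gene whose groups overlap; APOA2, SULT1A3 and CYP7A1 lie lower with PN and the other 7 higher.

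Over all 9 lists, with the 5 genes included, 129 genes were listed and 97 measured, with a median log2 fold change of -0.06. In the table of all genes, 13 of the 97 were called higher and 14 lower with PN, against 6.64% and 6.95% of all genes. The 14 include TRHDE, DIO1 and TTR, which were picked on this contrast. The lists were chosen with earlier results of these data known, so nothing is read from these totals. Of the 11 with values per liver other than TRHDE, 7 had every kept PN liver above every bottle-fed liver, 3 had every kept PN liver below, and 1 overlapped, against 43.5% and 41.6% of the 1054 genes. edgeR's quasi-likelihood test on the raw counts of those 1054 genes called 8 of the 11 higher and 3 lower, where it called 54.2% of all 1054 genes higher and 45.6% lower. The shares of the 1054 genes come from a table limited by its own fit to genes that differed between the groups, so nothing is read from them.

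**Figure D4:**
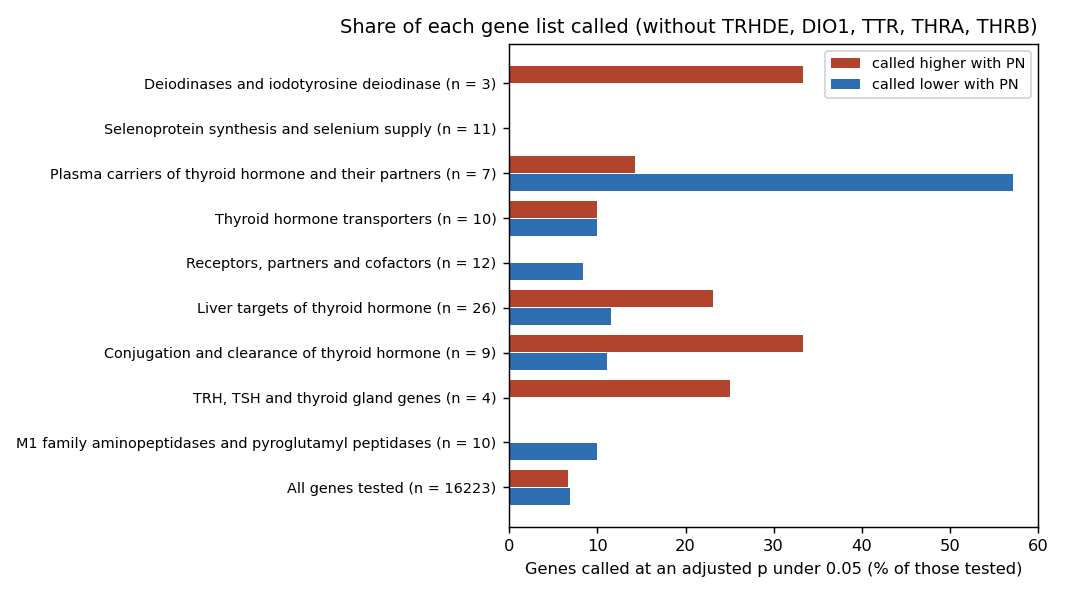
Share of the measured genes of each list, without TRHDE, DIO1, TTR, THRA and THRB, called higher (red) or lower (blue) with PN in the table of all genes, in percent, with the number measured in parentheses and the share over all 16223 genes in the last row. The carrier list has 4 of 7 genes called lower, the selenoprotein list has none called, and the shares over all genes are 6.64% higher and 6.95% lower. The lists were chosen with earlier results of these data known, so nothing is read from the contrast.

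The library sizes implied by the FPKM values, which are scaled and not raw totals, ran from 17337946 to 23421807 in the 6 PN livers and from 17106838 to 24025142 in the bottle-fed livers. By its methods the study compared the groups without its outlier, but the means in the table of all genes were closer to those of another set of livers. For genes in both tables, they lay nearest to those over the bottle-fed livers and PN 1 to PN 4 (median absolute log2 deviation 0.068, against 0.098 with the 5 kept PN livers and 0.18 with all 6), so the values of DIO1, TTR, THRA and THRB may rest on fewer PN livers than those of TRHDE per liver. Each liver is 1 piglet, but piglets of a group shared a sow.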

How the data were processed

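Liver messenger RNA of 9 piglets (6 PN, 3 bottle-fed) was sequenced in 1 batch. The authors cleaned the reads, mapped them to Sscrofa11.1 with HISAT2 2.0.5 and obtained a raw count per gene with featureCounts 2.0.3; the deposited counts cover 1054 genes, all past an adjusted p under 0.05 and a 2-fold change in the comparison columns of that same table. The normalized signal deposited by the authors is the count divided by 1 size factor per library. FPKM, as deposited by the authors, scale counts by gene length and a library size that followed the size factors within 0.812%, so true depth is unknown. The log2 fold changes, their standard errors and the adjusted p-values of the table of all genes are the authors' own DESeq2 output (1.26.0 in the submitters' processing notes, another version in the paper). That table was used, although it holds the authors' comparison, because 4 of the 5 genes have no other values here. The fold changes and p-values that the table with values per liver also holds were read only to learn that limit.

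The genes and lists were chosen with earlier results of these data known. Groups followed the labels, and PN 5 was left out unless stated. Normalized counts were compared on log2 of the value plus 1, and raw counts with edgeR 4.0.16 after TMM scaling (quasi-likelihood test, Benjamini-Hochberg adjustment). A gene was called at an adjusted p under 0.05. Named genes were the 5 genes, listed genes with values per liver, up to 4 called and 3 abundant uncalled genes per list, and the 5 genes most like TRHDE. Some genes that the rule takes are not reported here. Likeness was Pearson's r of deviations from group means among genes with a mean of at least 50. No 2 libraries looked like repeats: over 36 pairs, the chi-square divided by its degrees of freedom was at least 71.8. Alternatives were all 9 libraries, each library left out, pseudocounts of 0.5 and 5, TMM, the replicate number as a block, DESeq2 1.42.0 with its size factors, count and mean filters, stricter thresholds and Spearman correlation. The edgeR test was also run on simulated counts in which most genes were unchanged. The deposited counts are unlike that, so nothing is read from the simulation. Sequences came from RefSeq's annotation of Sscrofa11.1. Calculations used Python 3.11.15 and R 4.3.3.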

Additional observations from a re-analysis of the deposited data

How the results depend on the processing

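TRHDE was lower with PN under all alternatives run. Its log2 difference was -5.98, and -5.77 with all 9 livers, -6.18 to -5.85 with 1 liver left out, -5.97 with TMM, -6.12 with a pseudocount of 0.5 and -6.13 as edgeR's log2 fold change. A pseudocount of 5 gave -5.19, since it lies above most PN values. With the replicate block the value was -5.90, over the 3 numbers that both groups carry; edgeR then called 7 listed genes higher and 4 lower, TRHDE among the 4, against 8 and 4 without the block. These numbers are shared in name only: libraries of the same number had correlations of -0.05 to -0.02 in their deviations from the group means. In the table of all genes, 1 of the 5 genes (TRHDE) was called lower with a change of at least 2-fold required, against 3 without. That requirement left 7 listed genes higher and 5 lower (13 and 14 without), and an adjusted p under 0.01 left 9 lower. Of the 5 genes most like TRHDE, 2 were shared under Spearman correlation and 1 with all 9 livers. Of the values of these results under the alternatives, the 7 given as changed above moved by over 1.5 times (counts) or over 1 SD between livers (the TRHDE difference), and 66 did not. DESeq2 and DESeq2's size factors in edgeR each called 6 listed genes higher, against 8. Over single lists, 39 counts stayed within that range and 15 did not; the lists hold 0 to 6 calls, so 1 gene can move them. The table of all genes could not be refitted without single livers, and values of DIO1, TTR, THRA and THRB have no such check. Depth limits TRHDE with PN, at 3 to 11 reads.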
